A study of Mus musculus with 95 samples.

Results

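Collagen and laminin chains are the subunits from which the extracellular matrix and the basement membranes of a tissue are built, and their transcripts were followed here in mouse pancreatic islets. The members were the genes with a symbol of the form Col, number, a, number or Lam, a, b or c, number, whose CPM (the estimated count over the column sum, times 1000000) reached 1 in at least 10 libraries. Of the 20638 genes in the count table, 54 matched the pattern and 46 of these passed, 36 collagen and 10 laminin chains. Islets hold the endocrine cells of the pancreas. Their RNA was captured by its poly(A) tail and sequenced in 95 libraries. The mice were DO (Diversity Outbred) founder strain mice, and all ate a high-fat, high-sugar (HFHS) diet, given as 45% fat. The labels give neither strain nor sex nor age for a library, so the libraries formed 1 set, no groups were compared, and each value below is a median, a range or the value of a library called by its number, from 1 to 100 with 5 numbers missing.

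Collagens are trimers of chains wound into a triple helix. Fibrillar collagens form the cables of connective tissue, type IV collagen forms the sheet of the basement membrane, and type VI collagen forms beaded filaments between the cables. Laminins are trimers of an alpha, a beta and a gamma chain that assemble into a polymer on cell surfaces and bind integrins and dystroglycan. In the mouse pancreas, islet capillaries lie on a basement membrane made largely by endothelial cells, while fibroblasts, stellate cells and pericytes make interstitial matrix and ducts and acini have basement membranes of their own.

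Some chain genes lie head to head. The stretch between the starts of one such pair, Col4a4 and Col4a3, is shown because the relation of such neighbours was measured below. Col4a1 (ENSMUSG00000031502, minus strand) and Col4a2 (ENSMUSG00000031503, plus strand) lie on chromosome 8 at 11198423 to 11312826 and 11312805 to 11449287 (GRCm38, positions of the authors' table), so that their 5′ ends share 22 bases. Col4a4 and Col4a3 lie head to head on chromosome 1 with 71 bases between their starts, at chr1:82586850-82586920, printed here 5′ to 3′ on the minus strand, that of Col4a4, from the side of Col4a3 to the start of Col4a4 (GRCm38.p6, RefSeq), with a GC content of 69.0%.
Col4a3 to Col4a4: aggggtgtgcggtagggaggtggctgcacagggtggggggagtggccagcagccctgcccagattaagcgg

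The 250 bases before the RefSeq start of 4 further members are given because Col3a1 and Col5a1 moved together across libraries and Col7a1 and Col27a1 moved apart from them. They hold no annotated exon. Capitals mark a match on either strand. The letters searched were TATAAA for the TATA box. For the CCAAT box they were its name, and for the GC box they were GGGCGG. The windows are chr1:45311288-45311537 for Col3a1, chr2:27886175-27886424 for Col5a1, chr9:108953336-108953585 for Col7a1 and chr4:63215162-63215411 for Col27a1, all on the plus strand of GRCm38.p6.
Col3a1: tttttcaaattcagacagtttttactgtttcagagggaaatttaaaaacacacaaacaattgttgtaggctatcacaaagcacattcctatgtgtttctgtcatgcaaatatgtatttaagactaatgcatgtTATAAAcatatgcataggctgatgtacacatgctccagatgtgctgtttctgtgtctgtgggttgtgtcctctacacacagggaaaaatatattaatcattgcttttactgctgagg
Col5a1: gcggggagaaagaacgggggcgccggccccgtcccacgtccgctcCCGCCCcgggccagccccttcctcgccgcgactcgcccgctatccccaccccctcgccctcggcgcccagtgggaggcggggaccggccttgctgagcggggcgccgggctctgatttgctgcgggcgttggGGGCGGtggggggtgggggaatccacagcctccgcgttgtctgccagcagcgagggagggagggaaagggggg
Col7a1: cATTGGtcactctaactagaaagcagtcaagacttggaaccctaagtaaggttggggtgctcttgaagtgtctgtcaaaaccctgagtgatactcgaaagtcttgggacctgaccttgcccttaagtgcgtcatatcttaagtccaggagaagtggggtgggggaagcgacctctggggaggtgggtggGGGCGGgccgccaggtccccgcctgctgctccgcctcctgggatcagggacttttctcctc
Col27a1: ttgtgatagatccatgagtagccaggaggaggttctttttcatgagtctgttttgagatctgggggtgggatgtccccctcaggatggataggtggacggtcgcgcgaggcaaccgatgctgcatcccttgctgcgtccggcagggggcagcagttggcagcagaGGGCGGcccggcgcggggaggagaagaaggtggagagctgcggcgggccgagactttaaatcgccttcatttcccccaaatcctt
The Col3a1 window had a GC content of 35.2% and a TATAAA starting 117 bases before the start, and the Col5a1 window had a GC content of 76.4% and GGGCGG matches at 205 and 73 bases. Col3a1 and Col5a1 shared none of the 3 motifs in these windows. Their transcript levels had a rank correlation of 0.933 over the libraries. Any relation of the motifs to the levels was not tested. The RefSeq table held 37 windows for 34 of the members. TATAAA was found in 4 of these (10.8%, against 12.4% of all 32851 windows), CCAAT in 12 (32.4%, against 33.8%) and GGGCGG in 22 (59.5%, against 32.7%). Overlapping GGGCGG matches were each counted in positions but once per window.

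Library 22 was the shallowest at 16411809 counts and library 38 the deepest at 34357253, around a median of 26552738. The 8 beta cell markers held a median of 17.6% of the reads counted, and 14 acinar markers held from 0.197% to 31.1%, with over 25% in 5 libraries. The labels do not say whether 2 libraries can stem from 1 mouse, and p-values here reflect library-to-library spread, which may be technical. Libraries with neighbouring numbers were often alike, so they are not independent and permutation p-values are too small.

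The 46 chains together took a median of 0.0985% of all counts, with no scaling between libraries, from 0.0392% in library 54 to 0.279% in library 97. Both ends depended on the scaling. Library 54 had the lowest TMM factor (0.46; the scaling of library size by which CPM levels below were set), and relative to TMM-scaled library sizes it stood at 0.0853%. The median was then 0.105%, the lowest value 0.0654% in library 81 and the highest 0.228% in library 90. Collagens took a median of 0.0795% and laminins 0.0198% of unscaled counts. In whole islets, fewer cells of a type and less RNA per cell cannot be told apart. Library 54 also had the highest acinar share, and library 97 the highest shares of the fibroblast and stellate (0.0881%), macrophage (0.250%) and lymphocyte (0.109%) lists. The part of these cells in the sums was not tested.

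Collagens varied more between libraries than most genes did. The biological coefficient of variation (BCV, the between-library spread as a percentage of the level after counting noise, from edgeR) exceeded 50% in 28 of the 46 chains, against 24.5% of the 15839 genes that passed the filter. By family this was 26 of 36 collagens and 2 of 10 laminins. The median BCV was 58.4% for the chains and 26.1% for all genes. Col6a4, Col9a3, Col17a1 and Col23a1 passed the filter with 10 to 12 libraries at 1 CPM and so had to vary; 24 of the 42 other chains exceeded 50%. Among chains with a median of 1 CPM or more, 22 of 39 did so, against 16.7% of the 13918 genes at that level. The 8 genes outside the filter reached 1 CPM in 2 libraries (Col4a6, Lama1), 1 library (Col10a1, Col19a1) or 0 libraries (Col11a1, Col22a1, Col24a1, Col2a1).

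**Figure D1:**
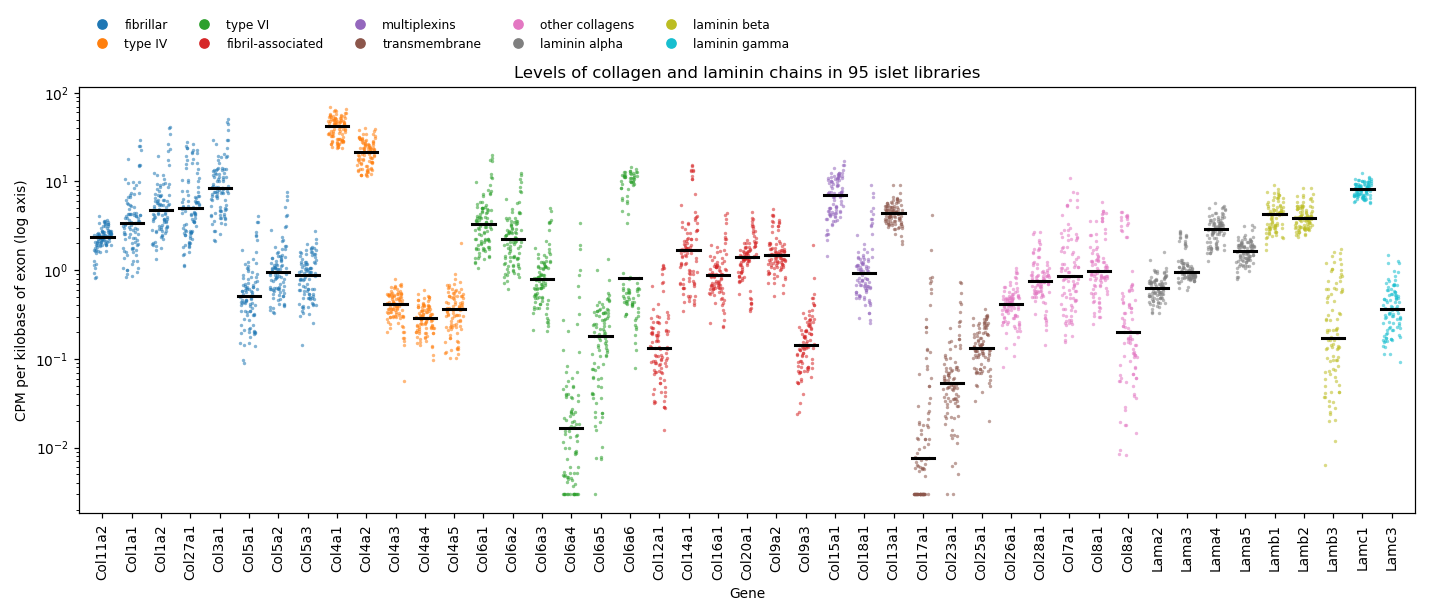
Level of 45 of the 46 chains in each of the 95 libraries, as CPM per kilobase of exon on a log axis, with 1 point per library and a black line at the median; values of 0 or below the axis are drawn at its foot. Col4a1 and Col4a2 lie highest, with medians of 42.3 and 21.6, and Col6a6 falls into an upper and a lower band.

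Per kilobase of exon, the type IV pair stood above all other chains. Col4a1 had a median of 42.3 CPM per kilobase and exceeded Col4a2, at 21.6, in 95 of 95 libraries. Col4a2 exceeded the next gene, the type III chain gene Col3a1, at 8.45, in 91 libraries. Lamc1 followed at 8.15, Col15a1 at 7.06, Col27a1 at 4.97 and the type I chain gene Col1a2 at 4.77. The interval from the 10th to the 90th percentile overlapped between every pair of neighbours in this order. At the low end were Col6a4 at 0.0166 and Col17a1 at 0.00767. With the longest coding transcript as the length, the first 10 genes were the same 10.

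Fibrillar chains moved as a block, with 2 exceptions. Of the 8 members, 7 had a BCV above 50%, against 24.5% of all genes. The median rank correlation over their 28 pairs was 0.664. Col1a1 (ENSMUSG00000001506, chromosome 11, 94936224 to 94953042), the alpha-1 chain of type I collagen, ranged from 5.02 CPM in library 19 to 176 in library 97 around a median of 20.0. Col1a2 ranged from 7.33 to 227 CPM around a median of 26.4, and Col3a1 from 11.8 to 279 around 47.0. The libraries highest in all 3 were 30, 90 to 92 and 97 to 100. Col5a1 and Col5a2, chains of the type V collagen that nucleates fibrils, reached 34.7 and 50.9 CPM from medians of 4.35 and 6.30. Col5a1 was at 18.6 CPM or more in libraries 90 to 92 and 97 to 100 and at 14.5 or less in all others.

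The exceptions were Col11a2 and Col27a1, which encode fibrillar chains known mainly from cartilage. Col11a2 had a BCV of 29.0%, a median of 15.0 CPM and a range from 5.20 to 25.7. Col27a1 (chromosome 4, 63214004 to 63334991) lay between 8.56 CPM in library 15 and 213 in library 29, with a median of 37.9. It was at 95.4 CPM or more in libraries 25 to 32, 59 to 65, 86 to 90 and 94, of which 30 and 90 were also among the highest for Col1a1. Its rank correlation with the fibroblast and stellate score was 0.17, and its most like marker list was lymphocytes, at 0.335.

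Both type I chains rose and fell together: Col1a1 and Col1a2 had a Spearman rho of 0.959 and a Pearson r of 0.967 in log2 CPM over 95 libraries (two-sided permutation test of 100000 resamples, p = 1e-05 for each, the smallest it can give, adjusted p = 1.17e-05 over 14 relations). Without the 2 libraries farthest from the median of Col1a1, 90 and 97, r was 0.962. The rank correlation was 0.969 in libraries numbered 50 or lower and 0.949 in those above. Per kilobase, the ratio of Col1a1 to Col1a2 had a median of 0.692 and stayed below 1 in all 95 libraries, from 0.306 in library 81 to 0.985 in library 75.

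Of the 5 type IV chains, which form the network of the basement membrane, 1 exceeded a BCV of 50%, against 24.5% of all genes, and their median BCV was 35.0%, against 26.1% for all genes. Col4a1 lay between 160 CPM in library 81 and 464 in library 10, with 281 as its median. Col4a2 ranged from 74.8 to 261 CPM around 139. The rank correlation between them was 0.773 and r 0.787 (permutation test, p = 1e-05, adjusted p = 1.17e-05), with r = 0.776 without libraries 53 and 81. The rank correlation was 0.725 at numbers 50 or lower and 0.819 above. Among all chains, Col4a1 was most like Col4a2, while Col4a2 was more like others, such as Lamb2 (rho = 0.854) and Col6a1 (0.846). Col4a3 and Col4a4, chains of the specialised network known from the glomerulus, were far lower, at medians of 3.54 and 2.92 CPM. Their rho was 0.511 and their r 0.574 (permutation test, p = 1e-05, adjusted p = 1.17e-05), r was 0.522 without libraries 97 and 100, and rho was 0.633 and 0.441 in the lower and upper numbers. Col4a3 was more like Col4a4 than like any other chain, while Col4a4 had higher values with Lamb1 (0.651) and Col8a1 (0.602). About 6.58% of the exon bases of Col4a3 overlap another gene, and use of strand in counting was not given in the sources used here. Col4a5, on the X chromosome, ranged from 0.661 to 13.2 CPM, and its highest value, in library 90, was followed by 5.92 in library 54.

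All 6 type VI members had a BCV above 50%, against 24.5% of all genes. Of these, Col6a4 passed the filter in 11 libraries and so had to vary. Col6a1, Col6a2 and Col6a3, which make the classical filament, had medians of 13.7, 13.5 and 8.58 CPM and were highest in library 97, at 81.5, 75.0 and 54.8. Col6a1 and Col6a2, neighbours on chromosome 10, had the highest correlation of all 1035 pairs of chains, with rho = 0.980 and r = 0.984 (permutation test, p = 1e-05, adjusted p = 1.17e-05). Without libraries 97 and 99, r was 0.981, and rho was 0.977 and 0.983 in the lower and upper numbers. Of the alternative alpha-3-like chains, Col6a5 moved with these, at rho = 0.782, 0.761 and 0.611 with Col6a1, Col6a2 and Col6a3, while Col6a4 and Col6a6 had rho between -0.160 and 0.105 with them. Col6a6 (chromosome 9, 105687809 to 105828160) ranged from 0.727 CPM in library 80 to 133 in library 56, and Col6a5 from 0 in library 19 to 12.6. Col6a4 was at 0 in 15 libraries and at 25.4 CPM in library 97. Up to 4.32% of the 31-base words of Col6a6 and 4.03% of those of Col6a5 occur in transcripts of another gene.

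**Figure D2:**
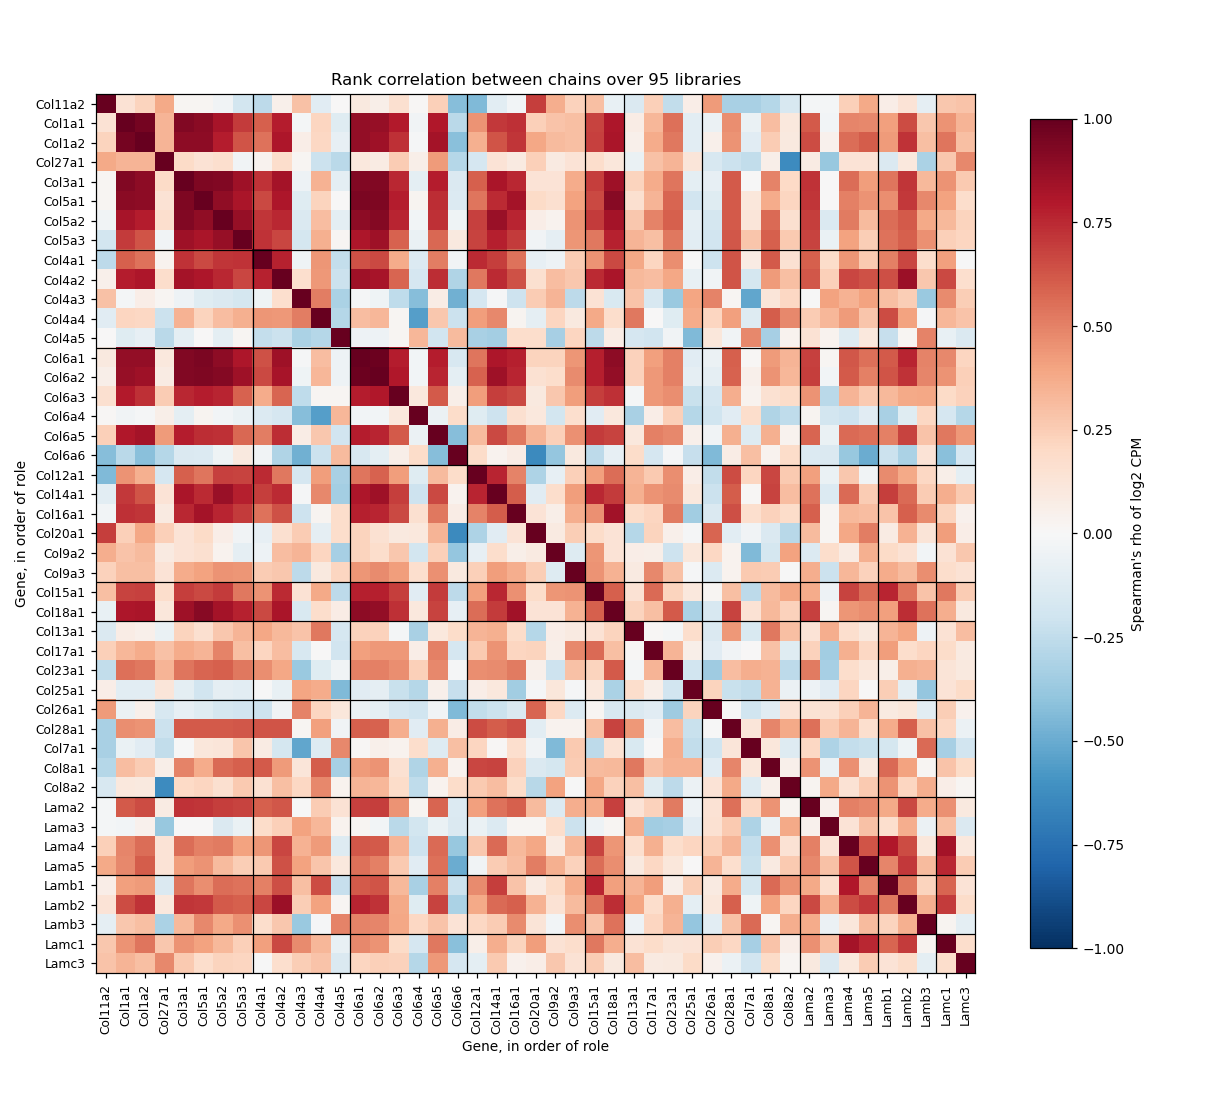
Spearman's rho between every pair of 45 of the 46 chains over 95 libraries, on a scale from -1 (blue) to 1 (red), with lines between role groups. The fibrillar chains other than Col11a2 and Col27a1, with Col6a1, Col6a2, Col6a3, Col14a1 and Col18a1, form a red block. Other chains are also red against it, such as Col4a2, Col6a5 and Col16a1, at 0.831, 0.782 and 0.754 with Col3a1.

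Fibril-associated collagens, which coat the surface of fibrils, exceeded a BCV of 50% in 5 of 6 members, against 24.5% of all genes. Col9a2, at 46.5%, did not, and Col9a3 passed the filter in 11 libraries and so had to vary. Col14a1 had a median of 11.7 CPM and was at 74.4 to 107 CPM in the 9 libraries from 66 to 75, against 50.7 or less elsewhere. Col12a1 was at 7.04 to 13.8 CPM in the same 9 libraries and at 5.06 or less in all others but library 10, at 8.14. Col20a1 went the other way, at 1.79 to 2.97 CPM in these 9 libraries, with only library 6 elsewhere in that range, at 2.79. Col9a2 was at 7.95 CPM or more in 14 libraries, 25 to 32 and 59 to 65, and at 6.68 or less in the rest. About 7.68% of the exon bases of Col9a3 overlap another gene.

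The multiplexins Col15a1 and Col18a1 release antiangiogenic fragments and are found in basement membrane zones. Col15a1 had a median of 42.6 CPM and its 6 lowest values, 8.68 to 17.1, in libraries 1, 3, 4, 5, 7 and 8. Col18a1 had a median of 6.53 CPM and reached 63.6 in library 90. Its values were 17.5 or more in library 10 and libraries 86 to 93, 95 and 97 to 100, and lower in the others.

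Among transmembrane collagens, Col13a1 was even, with a BCV of 27.5% around 14.2 CPM, while Col17a1, a hemidesmosome protein, was at 0 in 33 libraries and reached 23.2 CPM in library 100. Col23a1 reached 4.19 CPM in library 97 and Col25a1 stayed at 2.52 CPM or less. Col7a1, the anchoring fibril collagen (chromosome 9, 108953586 to 108984875), ranged from 1.42 CPM in library 25 to its highest, 100.9, in library 54, the library with the highest acinar share. Col8a2, a chain of the short network of type VIII collagen, had a spread of 5.97 log2 units between its 10th and 90th percentiles, the widest of the 46, from 0.0365 to 20.6 CPM. Its partner Col8a1 was high elsewhere, at 18.1 to 29.8 CPM in libraries 66 to 75 and in libraries 3, 34 and 90. Col28a1, a collagen of peripheral glia, had a median of 3.19 CPM and its lowest values, 0.612 to 1.83, in library 22 and libraries 76 to 85. Col26a1 had a median of 1.16 CPM.

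**Figure D3:**
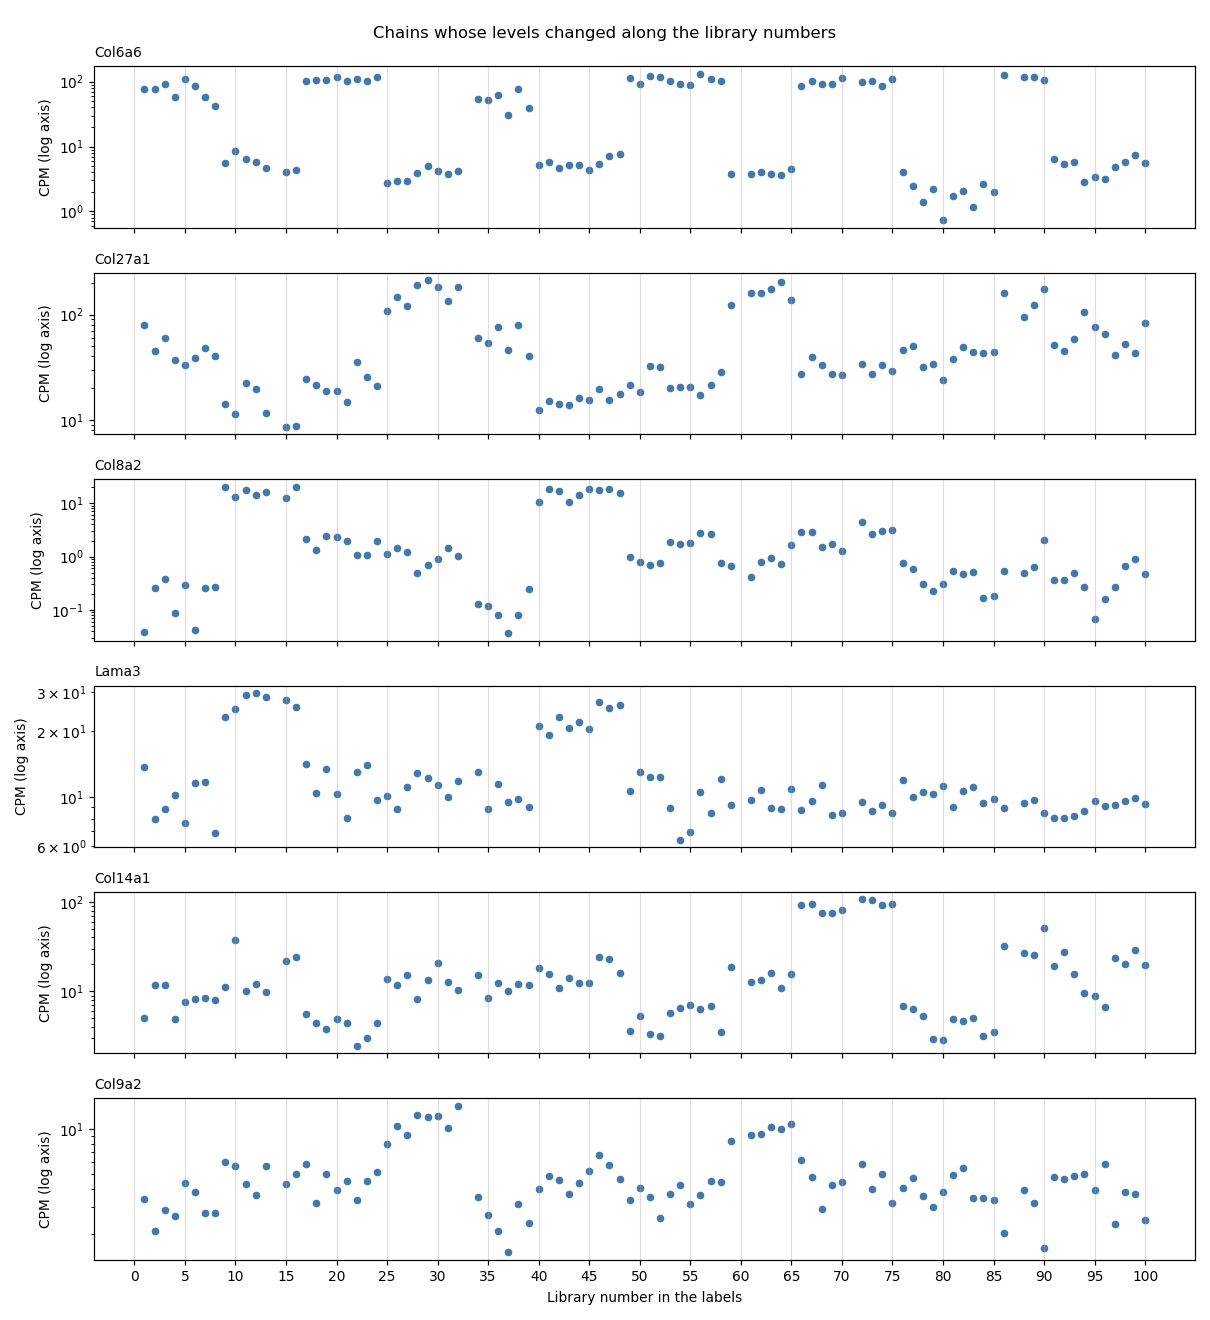
CPM of 6 chains on log axes against the number of the library in its label, 1 point per library. Col6a6 alternates between 30.9 CPM or more and 8.41 or less in runs of neighbouring numbers, Col8a2 and Lama3 are high in libraries 9 to 16 and 40 to 48, and Col14a1 is high in libraries 66 to 75.

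Of the 10 laminin chains 2 exceeded a BCV of 50%, against 24.5% of all genes, and their median BCV was 33.4%. No alpha chain exceeded a BCV of 50%, and Lamc1, the gamma chain of most laminins, had the lowest BCV of all 46 at 17.5%, with a median of 62.2 CPM (43.6 to 96.1). Lamb1 and Lamb2, alternative beta chains, had medians of 25.1 and 22.2 CPM. Lama4 and Lama5, the vascular alpha chains, had medians of 17.8 and 18.6 CPM. Per kilobase, Lama5 was below Lama4 in all but 2 libraries, with a median ratio of 0.562. The exons of Lama4 and Lama5 hold 6.05 and 11.4 kilobases, and an effect of length on this order was not tested. Lama2 had a median of 6.13 CPM. Lama3 (chromosome 18, 12333819 to 12583013), an alpha chain of epithelial laminins, was at 19.1 to 29.7 CPM in the 16 libraries from 9 to 16 and 40 to 48 and at 14.1 or less in all others. These were also the libraries in which Col8a2 was highest, at 10.49 to 20.6 CPM.

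Laminin partners moved together in both pairs given here. Lamb1 with Lamc1 gave rho = 0.585 and r = 0.579, and Lama5 with Lamb2 gave rho = 0.706 and r = 0.746 (permutation tests, p = 1e-05, adjusted p = 1.17e-05). Without the 2 farthest libraries r was 0.564 and 0.724. The rank correlation was 0.746 and 0.387 in the lower and upper numbers for Lamb1 with Lamc1, and 0.757 and 0.643 for Lama5 with Lamb2. Each of these chains was more like a chain outside its pair. Lamb1 and Lamc1 had rho = 0.797 and 0.833 with Lama4. Lama5 had 0.752 with Lamc1, and Lamb2 had 0.854 with Col4a2. Lamb3, a beta chain of epithelial laminins, had a median of 0.887 CPM and a range from 0.0328 in library 5 to 8.86 in library 93. Lamc3 had a median of 2.15 CPM and a BCV of 57.7%, and 6.41% of its exon bases overlap another gene.

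**Figure D4:**
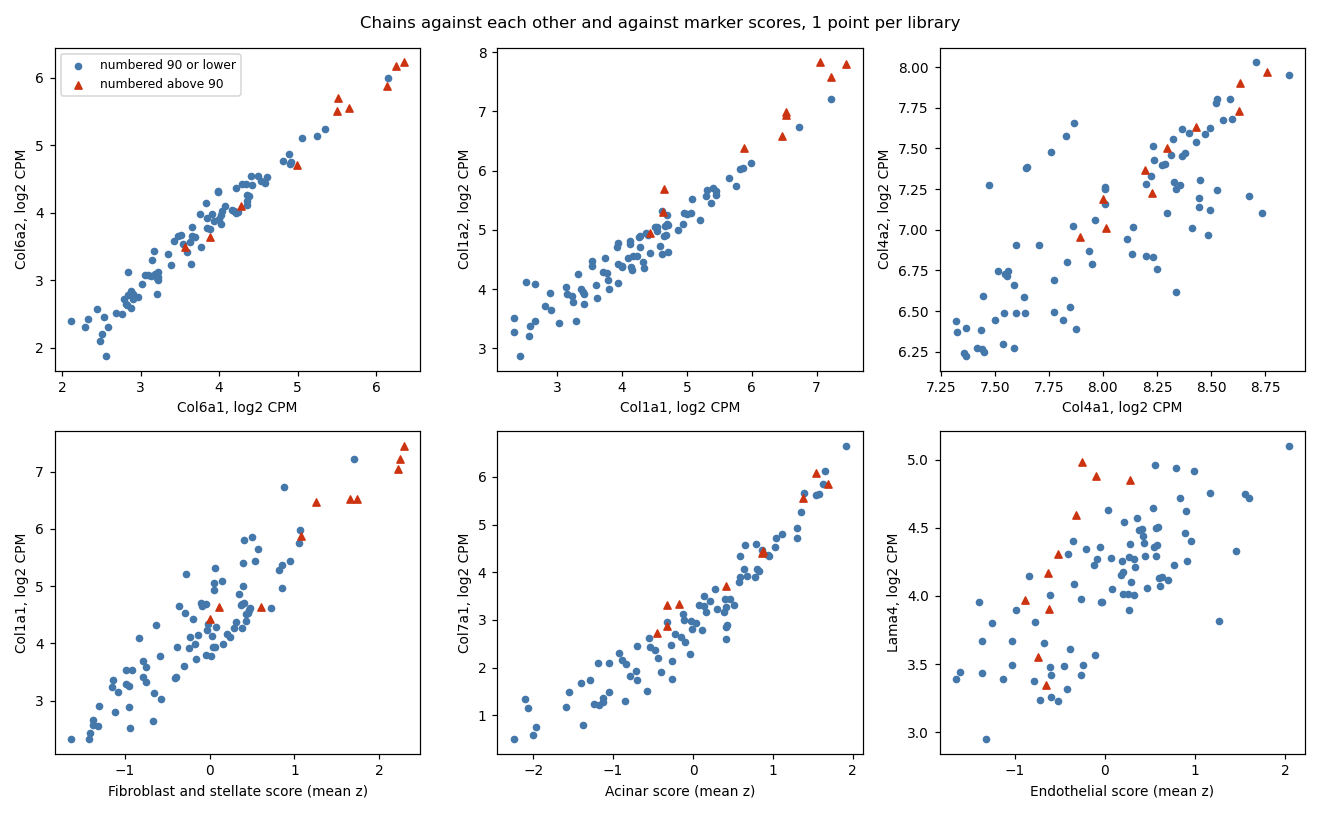
Chains against each other (top) and against marker scores (bottom) in 95 libraries, as log2 CPM and mean z-scores, with libraries numbered above 90 as red triangles. Col6a1 and Col6a2 lie on a narrow band, Col7a1 rises with the acinar score, and a few libraries lie above the band of Col4a1 and Col4a2.

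Marker lists of other cell types moved with many chains. A score, the mean z-scored log2 CPM of the list, was formed for 12 lists, and the likeness of a chain to it is given as Spearman's rho over the 95 libraries, which share depth and scaling. All genes of 11 lists passed the filter and none was at 0 throughout; of the mesothelial list Msln alone passed. The fibroblast and stellate score was the most like for 16 chains, the endothelial for 9 and the glial for 4. The fibroblast list took from 0.00489% to 0.0881% of counts, the endothelial list from 0.0203% to 0.139% and the glial list from 0.000524% to 0.00543%. Scores of different lists were themselves alike, with rho = 0.807 between fibroblast and glial and 0.801 between duct and acinar, so no chain is assigned to a cell type here.

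Of the relations with marker scores that were tested, Col1a1 rose with the fibroblast score, with rho = 0.891 and r = 0.924 (permutation test, p = 1e-05, adjusted p = 1.17e-05). Leaving out libraries 90 and 97 gave r = 0.914, and the lower and upper numbers gave rho = 0.820 and 0.935. The list behind this score holds matrix genes such as Lum, Sparc and Fbn1, so the relation is partly between matrix genes. Lama4 rose with the endothelial score at rho = 0.697 and r = 0.700 (permutation test, adjusted p = 1.17e-05), with rho = 0.782 and 0.646 by numbers and r = 0.669 without libraries 4 and 46. Col4a1 did so more weakly, at rho = 0.454 and r = 0.479 (permutation test, adjusted p = 1.17e-05) and r = 0.462 without libraries 53 and 81. In libraries numbered above 50 its rho was 0.197 and did not pass, against 0.652 in the others. The fibroblast score was more like Col4a1, at rho = 0.740. Col1a1 and Col4a1 had rho = 0.596 and r = 0.617 (permutation test, adjusted p = 1.17e-05). Leaving out libraries 90 and 97 gave r = 0.600, and the lower and upper numbers gave rho = 0.471 and 0.717.

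Lamb3 rose with the duct score, at rho = 0.728 and r = 0.740 (permutation test, p = 1e-05, adjusted p = 1.17e-05). Leaving out libraries 5 and 93 gave r = 0.732, and rho was 0.631 and 0.853 by numbers. Lamb3 also had rho = 0.576 with the acinar score. With that score regressed out, Lamb3 with the duct score gave rho = 0.554 and r = 0.545. Col28a1 rose with the glial score, at rho = 0.734 and r = 0.689 (permutation test, adjusted p = 1.17e-05). Leaving out libraries 16 and 80 gave r = 0.681, and rho was 0.876 and 0.742 by numbers. Col1a1 showed no relation with the acinar score that passed, at rho = -0.0786 and r = -0.0819 (permutation test, adjusted p = 0.485 and 0.431). In all, 12 of the 14 relations passed.

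**Figure D5:**
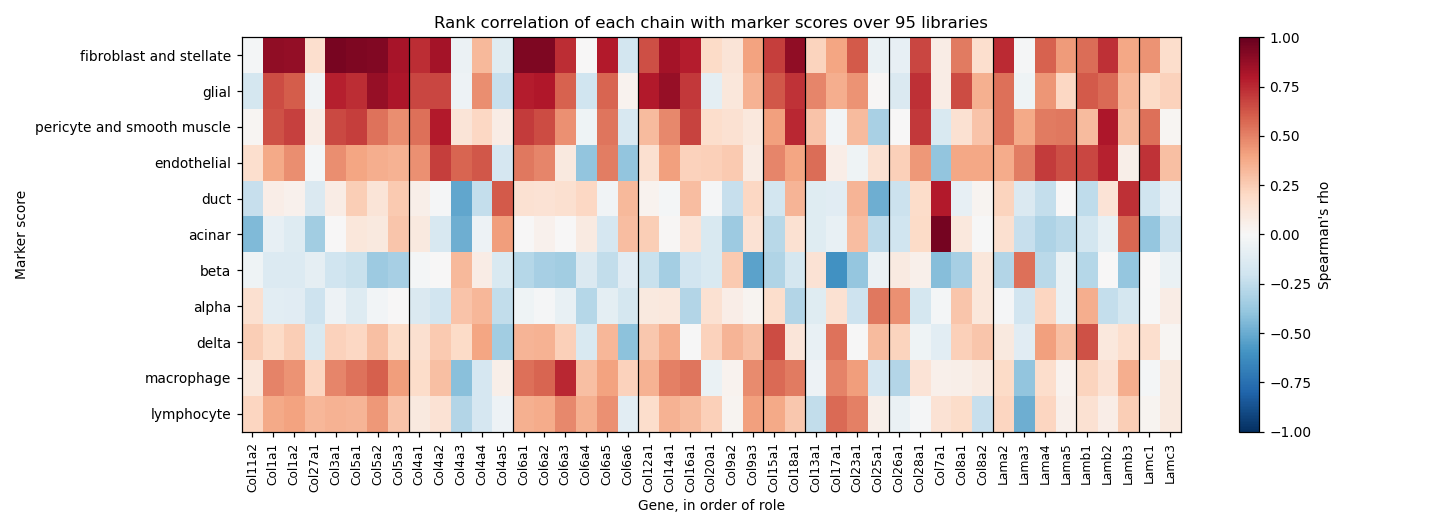
Spearman's rho of 45 of the 46 chains (columns) with the scores of 11 marker lists (rows) over 95 libraries, on a scale from -1 (blue) to 1 (red). Col7a1 stands out against the acinar score at 0.960, and the fibrillar chains are red against the fibroblast and stellate score, Col11a2 and Col27a1 apart.

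Several chains were most like a list other than fibroblasts. Col7a1 had rho = 0.960 with the acinar score, higher than any other chain with any list. Lamb2 had 0.812 with the pericyte and smooth muscle score, Col14a1 and Col12a1 0.871 and 0.796 with the glial score, Lamc1 0.722 with the endothelial score and Col6a3 0.753 with the macrophage score. The next list was close for some of these. Lamb2 had 0.769 with the endothelial score, and Col14a1, Col12a1 and Col6a3 had 0.835, 0.642 and 0.742 with the fibroblast score. Lamc1 had 0.552 with the pericyte and smooth muscle score. Col8a2 had 0.761 with Msln. Lama3 had 0.548 with the beta cell score and 0.515 with the endothelial score.

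Genes outside the family that were most like 8 chosen chains included matrix genes. Nearest to Col1a1 were the procollagen protease gene Adamts2 (rho = 0.916) and the proteoglycan genes Bgn (0.897) and Lum (0.891), and nearest to Col6a1 were Bgn (0.953), Lum (0.923) and Fstl1 (0.920). Col18a1 was nearest to the intermediate filament gene Vim (0.911), Col4a1 to the syndecan gene Sdc3 (0.769), Lama5 to the laminin receptor gene Bcam (0.784), Lama4 to Rasgrp3 (0.809), Lamb3 to Spns2 (0.856) and Col28a1 to Olfml2a (0.844). All values are over 95 libraries among 15838 genes.

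Genes that act on or bind the chains were counted against the same BCV of 50%, which 24.5% of all genes exceeded. The counts per list are small and were not compared by a test. For collagen folding and cross-linking it was 5 of the 21 genes that passed the filter. The prolyl hydroxylase subunit gene P4hb was the highest at a median of 863 CPM with a BCV of 19.1%. Its rho was 0.073 with Col1a1 and 0.055 with Col4a1, and its highest value was in library 54. The cross-linking enzyme gene Lox was the widest at 2.68 log2 units. Serpinh1, the collagen chaperone, had a median of 23.6 CPM (13.6 to 67.8). Of 5 genes for propeptide removal, 4 exceeded 50%, the exception being Bmp1 at 90.6 CPM. Among 9 basement membrane partners 2 did, and Sparc was highest at 121 CPM. The nidogen and perlecan genes Nid1 and Hspg2 had medians of 36.0 and 94.4 CPM. Of 13 receptor genes 3 exceeded 50%; the integrin gene Itgb1 was at 171 CPM with a BCV of 13.8%, and Itgb4, the integrin subunit of hemidesmosomes, spanned 2.98 log2 units. Of 9 genes for degradation and its inhibitors 5 exceeded 50%, with Timp3 highest at 176 CPM and Mmp2 widest at 3.18 log2 units.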

How the data were processed

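Estimated counts, deposited by the authors without normalization, cover 20638 genes in 95 libraries; 67.7% of its values were whole to within 1e-06. A second deposited table from the authors holds variance-stabilised values on a log2-like scale. Per the submitters' processing notes, GRCm38 and DESeq2 were used; their roles and versions, and the aligner, the counting tool and its use of strand, are not given in the sources used here. Positions come from the authors' table, exon lengths from GENCODE M21 of GRCm38, and sequences from RefSeq (GRCm38.p6).

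CPM were scaled with TMM factors (trimmed means of M values) from edgeR 4.0.16, which ran from 0.46 to 1.29; log2 CPM used a prior count of 2. Counts were rounded to whole numbers for the BCV, which was fitted on all 15839 genes that passed the filter with an intercept only. For relations, rho (Spearman) and r (Pearson) each had a two-sided permutation test (100000 resamples, numpy 2.4.6) with Benjamini-Hochberg adjustment over the 14 run. The steps were tested on simulated data: over 15839 genes, 200 of 200 set to a BCV of 80% were estimated above 50%, against 0 of 15639 set to 20%, and 20 of 20 related pairs passed against 1 of 20 unrelated ones.

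All libraries were left without a group, as the labels give none. The members and lists were chosen with earlier results of these data known. Of the 46 members 45 are named, and the other, with the 1 relation that needs it, was kept in the fits and counts and is not reported here. Of these, 8 were fixed for the search of similar genes; pathway lists are named by their highest and widest gene and a few others, which, like the ratios of chain pairs and the shown promoters, were chosen after their values were seen. Alternatives were plain CPM, size factors from DESeq2 1.42.0, its gene-wise dispersions, no filter, a prior count of 0.5, the variance-stabilised values, the longest transcript as length, the acinar score regressed out, and sets of libraries: numbered 50 or lower, above 50, without those above 90, without 5 with over 25% acinar counts, and without the 10 lowest totals.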

Additional observations from a re-analysis of the deposited data

How the results depend on the processing

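The number of relations passing (12 of 14), the count of chains with a BCV above 50% (21 to 28 over the settings, 21 in libraries numbered 50 or lower, of which 20 were among the 28), the summed share of counts (medians of 0.0938% to 0.114%), the 10 highest chains per length and the 24 nearest genes stayed within 1.5 times or the spread between libraries under every alternative run. Of all genes, 17.9% exceeded a BCV of 50% in libraries numbered 50 or lower, against 24.5% over all libraries. None of 322 alternative medians of a chain moved by more than its spread. Single relations changed as follows, and the cause was not tested. With plain CPM, Col1a1 with the acinar score gave rho = -0.251, which passed. Col4a1 with the endothelial score then gave rho = 0.59 and r = 0.72, and Lama4 with that score 0.817 and 0.853. In libraries numbered above 50, Col1a1 with the acinar score gave 0.059 and Col4a1 with the endothelial score 0.197, which no longer passed. Col4a5 with Col4a6 was not run, since Col4a6 failed the filter. The median summed share was 0.105% relative to TMM-scaled library sizes, an alternative chosen after seeing the data, and 0.105% with DESeq2 size factors. With either, its lowest library was 81 and no longer 54, and its highest 90 and no longer 97. No paired analysis was possible because the labels put no library in a group. Depth limits chains under 1 CPM, such as Col17a1 and Col6a4, which were at 0 in some libraries.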

Other observations

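The levels of Col6a6 fell into separate bands, the only chain whose sorted log2 values had a gap wider than 20% of their range (25.3%) with 6 or more libraries on either side of it. The gap lay between 8.41 and 30.9 CPM, with 50 libraries below and 45 above. The libraries above were 1 to 8 (42.8 to 109 CPM), 17 to 24 (102 to 117), 34 to 39 (30.9 to 75.9), 49 to 58 (90.2 to 133), 66 to 75 (84.6 to 115) and 86 to 90 (106 to 126). Those below were 9 to 16 (4.04 to 8.41), 25 to 32 (2.79 to 5.03), 40 to 48 (4.37 to 7.70), 59 to 65 (3.62 to 4.49), 76 to 85 (0.727 to 4.02) and 91 to 100 (2.82 to 7.45). The plot of CPM against library number shows each value. Lama3, with a gap of 19.7%, and Col8a2, with 16.4%, came closest.

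The ratio of Col4a1 to Col4a2 per kilobase, examined after the values were seen, also had such a gap, of 26.1% of its log2 range. In libraries 25, 27, 28, 62, 63 and 65 it was 1.15, 1.12, 1.18, 1.16, 1.11 and 1.17. In the other 89 libraries it ran from 1.56 to 3.19. The neighbouring libraries 26, 29, 30, 31 and 32 were at 1.82, 1.62, 1.60, 1.82 and 1.64, and libraries 59, 61 and 64 at 1.70, 1.75 and 1.73, so the 6 libraries did not make up an unbroken run of numbers. These 2 genes share 22 bases at their 5′ ends, and the strand used in counting was not given in the sources used here.

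The ratio of Lamc1 to Lamb1 per kilobase was 0.824 to 1.23 in the 9 libraries from 66 to 75 and 1.34 to 4.27 in the other 86, with a gap of 5.23% of its range. These are the libraries in which Col14a1, Col12a1 and Col8a1 were high and Col20a1 was low.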
